A study of Mus musculus with 4 samples.

Results

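The 47 genes described here are type I interferon-stimulated genes, read in CD11b+Ly6g+ MDSCs (myeloid-derived suppressor cells) sorted from mouse lungs that carried a pre-metastatic niche (PMN). They were chosen by gene symbol from known interferon targets, with earlier results of these data known, and they are 47 of the 54532 genes in the count table. All 47 had at least 10 counts in at least 1 library, as did 16369 genes in all. There were 4 mRNA libraries, 1 per group, each made from the pooled cells of 10 to 12 C57BL/6 mice of 6 to 8 weeks. Every mouse was a PMN model mouse: it was given 300 μl of melanoma-conditioned medium (MCM, from cultures of the mouse line B16F10) by intraperitoneal injection on each of 10 days, and living B16F10 cells by the tail vein at day 7. The control mice received no peptide. The other mice received TP5, sFD17 or FR17 under the skin once a day, at 40 μM/kg and starting on day 3, and all lungs were taken on day 10. TP5 is thymopentin, a short immunomodulatory peptide. FR17 carries TP5 behind a linker that the matrix protease MMP2 can cut, on a backbone that assembles by itself once released. sFD17 has the same assembling backbone with the TP5 sequence scrambled and is the control for assembly. The control for the effect of the niche itself, a lung without MCM, was not analysed here. With 1 pooled library per group there was no spread between replicates, so no test of the conditions was possible, and every interval below covers counting error only.

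Type I interferons (IFN-α and IFN-β) are secreted alarm signals of antiviral defence. They bind the receptor chains IFNAR1 and IFNAR2, and the kinases JAK1 and TYK2 then pass the signal on. STAT2 and IRF9 enter a complex that binds the interferon-stimulated response element (ISRE) in the promoters of target genes. Neutrophils and their immature relatives carry this pathway, and the products of its target genes block viral entry, degrade viral RNA, modify proteins with ISG15 and adjust the response itself. The comparisons below ask how the transcripts of these targets stood under each peptide, and whether the assembling backbone or the TP5 cargo went with a difference.

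The promoters show a sequence feature that the choice of genes did not use. RefSeq promoter windows on GRCm38.p6 were matched for 39 of the 47 genes. Oas2, Mx1, Mx2, Usp18, Parp9, Parp14, Rtp4 and Ifi27l2a had no window. The ISRE was searched as GAAANNGAAA, where N is any base, on both strands of the 250 bases before the start. It was found for 12 of the 39 genes (30.8%) and for 3.46% of 27025 genes with a window. Counted by window, 2.98% of 32851 windows held it. The gamma-activated site (GAS), an element of the interferon-γ response, was searched as TTCNNNGAA, which reads alike on both strands. It was found for 5 of the 39 genes (12.8%) and for 8.13% of all genes. A match of one motif may overlap a match of the other, and a match is a description of the letters and not a binding site. The 12 genes with an ISRE match were Ifit1, Ifit3, Ifit3b, Isg15, Oas1a, Oas1g, Oas3, Rsad2, Bst2, Trim30a, Trim30d and Phf11b.

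Promoters of 5 genes are printed 5′ to 3′ on the strand of the gene, 250 bases up to the start, with ISRE matches on either strand in capitals. Ifit1, Ifit3 and Ifit3b are shown because the Ifit genes had the largest rises, Isg15 because its 3 matches overlap in a run, and Bst2 because it holds 2 matches and stayed under 2-fold. The windows are chr19:34640639-34640888 on the plus strand for Ifit1, chr19:34583279-34583528 on the plus strand for Ifit3, chr19:34607707-34607956 on the plus strand for Ifit3b, chr4:156200819-156201068 on the minus strand for Isg15 and chr8:71537473-71537722 on the minus strand for Bst2.
Ifit1: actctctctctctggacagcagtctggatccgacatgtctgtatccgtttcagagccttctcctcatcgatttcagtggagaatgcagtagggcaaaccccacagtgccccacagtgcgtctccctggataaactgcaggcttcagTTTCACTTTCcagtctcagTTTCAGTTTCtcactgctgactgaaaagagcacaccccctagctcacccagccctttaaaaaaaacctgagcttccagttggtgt
Ifit3: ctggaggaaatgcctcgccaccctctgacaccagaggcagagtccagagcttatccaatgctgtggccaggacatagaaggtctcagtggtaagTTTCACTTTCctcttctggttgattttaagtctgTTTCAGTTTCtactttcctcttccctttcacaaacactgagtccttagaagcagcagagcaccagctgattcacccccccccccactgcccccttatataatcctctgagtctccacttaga
Ifit3b: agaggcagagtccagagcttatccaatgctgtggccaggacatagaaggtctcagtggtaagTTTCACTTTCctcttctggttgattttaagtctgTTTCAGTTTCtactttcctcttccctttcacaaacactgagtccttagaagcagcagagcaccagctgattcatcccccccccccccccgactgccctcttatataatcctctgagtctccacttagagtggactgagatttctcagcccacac
Isg15: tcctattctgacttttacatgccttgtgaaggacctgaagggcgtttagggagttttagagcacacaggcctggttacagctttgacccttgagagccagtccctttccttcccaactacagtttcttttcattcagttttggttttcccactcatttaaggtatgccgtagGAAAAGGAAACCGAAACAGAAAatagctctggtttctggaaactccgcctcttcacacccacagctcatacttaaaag
Bst2: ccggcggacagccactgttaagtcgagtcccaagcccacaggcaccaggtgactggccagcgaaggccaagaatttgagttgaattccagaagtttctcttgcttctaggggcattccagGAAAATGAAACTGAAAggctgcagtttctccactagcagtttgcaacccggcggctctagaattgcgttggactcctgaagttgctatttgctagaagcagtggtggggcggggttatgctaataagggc

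In Ifit1 the 2 matches began at −104 and −85 from the start. In the paralogs Ifit3 and Ifit3b the matches had the same letters and the same spacing of 34 bases, beginning at −156 in Ifit3 and at −188 in Ifit3b. The 3 matches of Isg15 lay between −78 and the start, the last beginning at −66, and the pair in Bst2 began at −130 and −124. Among the 12 genes with an ISRE match the median log2 fold change of sFD17 against control was 1.84 (range 0.60 to 3.47), and 9 of the 12 were at least 2-fold higher. Among the 27 genes without a match it was 1.45 (−0.40 to 3.98), and 20 of the 27 were at least 2-fold higher. The largest rise of all, in Ifit2, belonged to a promoter without an ISRE match in this window.

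The libraries held 15543071 to 19638228 counts. Counts were scaled with edgeR's TMM factors (0.849 to 1.17) to CPM (the usual library-scaled unit of read counts), and a gene was called higher or lower, or said to have risen or fallen, when its log2 CPM differed by at least 2-fold. Levels of a gene are given in the order control, TP5, sFD17, FR17. All 13 neutrophil markers, Itgam (CD11b) and Ly6g of the sort among them, were read in every library, the lowest being Ly6g with 1234 counts in control. Of 5 melanoma markers, Tyrp1 and Tyr were at 0 in all 4 libraries.

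Together the 47 genes took 85471 counts in control, or 0.499% of the library (95% Wilson score interval 0.496 to 0.502). The TP5 share was 0.460%, the sFD17 share 1.31% (1.31 to 1.32) and the FR17 share 0.419%. The sFD17 library thus stood alone, and the other 3 lay close to each other. Relative to control, the TMM-scaled sum was 0.890 under TP5, 3.05 under sFD17 and 0.708 under FR17. The 5 genes with the most counts over the 4 libraries together, Samhd1, Ifitm3, Ifitm1, Rnf213 and Oasl2, made up 45.7% of the sum in control. Without them the other 42 genes gave ratios of 0.915, 3.53 and 0.750. Gene by gene, 45 of 47 were highest in sFD17, Lgals3bp was highest in control and Pnpt1 was highest in FR17. FR17 was the lowest library for 31 genes, control for 8, TP5 for 7 and sFD17 for 1. The order sFD17, control, TP5, FR17 from high to low held for 22 genes. The place of FR17 depends on the scaling: by library size alone, an alternative chosen for these ranks after seeing the data, FR17 was lowest for 20 genes, control for 12 and TP5 for 14, and the order held for 12. Scaled on the neutrophil markers, FR17 was lowest for 19 genes and TP5 for 22. sFD17 was the highest library for 43 and 41 genes under these scalings.

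**Figure D1:**
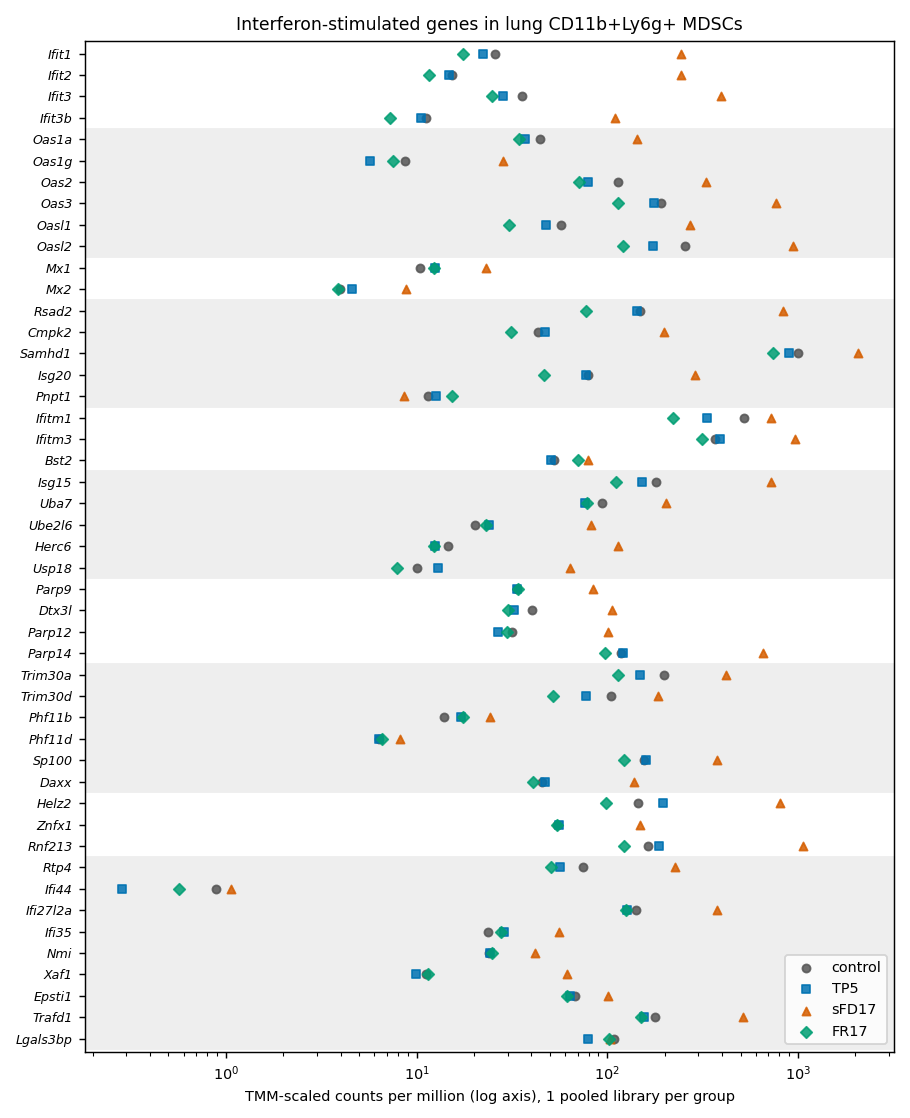
TMM-scaled CPM (log axis) of the 47 interferon-stimulated genes in the control, TP5, sFD17 and FR17 libraries, 1 pooled library per group, with shaded bands marking role groups. The sFD17 point is the rightmost for 45 of the 47 genes, while the other 3 libraries lie close together, for example at 17.5 to 25.9 CPM for Ifit1 against 242 in sFD17.

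In sFD17, the assembling peptide with scrambled TP5, 37 of the 47 genes were at least 2-fold higher than in control and 0 were lower. Over all 16369 genes 5.31% were called higher and 6.47% lower. The median log2 fold change of the 47 was 1.53 (2.90-fold), with the middle of the list between 1.10 and 2.22, and that of all genes was −0.03. The counting interval lay above 0 for 43 genes, below 0 for 1 and held 0 for 3. Among the 11989 genes with at least 50 counts in a library, 24 of the 100 with the largest rise were on this list. Since the list was drawn up with results of these data known, these contrasts are a description and not independent evidence. The study names a negative binomial p and a threshold. Here edgeR's exact test at an unadjusted p under 0.05, with a dispersion taken over the 4 libraries, called 35 of the 47 higher and 0 lower, against 1.94% of all genes higher and 2.89% lower. Mx2 and Samhd1 were past 2-fold and were not called by that test. DESeq2's Wald test at the same threshold called 1 of the 47 higher and 0 lower, and 37 of all genes higher and 155 lower.

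The Ifit genes encode tetratricopeptide proteins that bind foreign RNA and stop its translation. They lie together on chromosome 19 between 34550694 and 34650009, and all 4 rose in sFD17 with a median log2 fold change of 3.38. Ifit2 (ENSMUSG00000045932) was at 15.4, 14.8, 244 and 11.6 CPM. That was a 15.7-fold rise in sFD17 (log2 3.98, counting interval 3.80 to 4.17), the largest of the 47. Ifit3 was at 35.7, 28.5, 397 and 24.9 CPM, an 11.1-fold rise in sFD17. Ifit1 was at 25.9, 22.3, 242 and 17.5 CPM, 9.31-fold higher in sFD17. Ifit3b was at 11.2, 10.6, 110 and 7.23 CPM, 9.74-fold higher. In each of the 4 genes sFD17 was far above the other libraries, and with TMM scaling FR17 was the lowest. Ifit3 and Ifit3b are near copies: 31.7% of the 100-base words of Ifit3 exons also occur in Ifit3b, so reads between this pair could be divided differently by another counting rule.

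Oligoadenylate synthetases (Oas) form a family whose active members sense double-stranded RNA and make the 2′-5′ oligoadenylates that activate RNase L. Not every listed member, Oasl1 being 1, is such an enzyme. All 6 listed members rose in sFD17, with log2 fold changes from 1.53 (Oas2) to 2.25 (Oasl1). Oasl2, the most abundant of them by counts, was at 255, 175, 942 and 121 CPM, 3.70-fold higher in sFD17. Oas3 was at 192, 176, 764 and 113 CPM, 3.98-fold higher. Oasl1, which restrains Irf7 translation, was at 57.1, 48.0, 272 and 30.7 CPM, 4.76-fold higher. With TMM scaling the order sFD17, control, TP5, FR17 held in these 3 genes. Oas1a and Oas1g, at 3.22-fold and 3.23-fold, share 40.9% of the 100-base words of Oas1a and cannot be counted fully apart. The dynamin-like GTPase genes Mx1 and Mx2 rose less, by log2 1.14 and 1.13. Mx2 was at 3.97, 4.56, 8.79 and 3.88 CPM, and its counting interval began at 0.70, below 2-fold.

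Among enzymes of nucleotides and nucleic acids, 4 of 5 rose. Rsad2 encodes viperin, which makes a chain-terminating nucleotide, and Cmpk2 is its neighbour on chromosome 12 and supplies nucleotides. Rsad2 was at 148, 144, 838 and 77.8 CPM, 5.65-fold higher in sFD17. Cmpk2 was at 43.5, 47.3, 198 and 31.4 CPM, 4.54-fold higher. Both were highest in sFD17 and, with TMM scaling, lowest in FR17. The exonuclease gene Isg20 was 3.62-fold higher. Samhd1, a dNTP hydrolase that limits retroviruses, had the most counts of the list and was at 1002, 902, 2056 and 741 CPM. Its rise in sFD17 was just past the threshold, at 2.05-fold. Pnpt1, a mitochondrial RNA exonuclease, went against the list at 11.4, 12.7, 8.64 and 15.3 CPM, a log2 fold change of −0.40 (−0.75 to −0.06) in sFD17 that did not reach 2-fold.

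The ISG15 system attaches the ubiquitin-like protein ISG15 to others, and its 5 listed genes all rose in sFD17. Isg15 itself (ENSMUSG00000035692, chromosome 4, 156199424 to 156200818) was at 180, 152, 719 and 111 CPM, 3.99-fold higher. Its activating enzyme Uba7 rose 2.15-fold, its conjugating enzyme Ube2l6 4.01-fold and its ligase Herc6 7.71-fold. Usp18, which removes ISG15 and also dampens the receptor, was at 10.0, 12.9, 63.7 and 7.88 CPM, 6.31-fold higher. Activating, conjugating and removing enzymes thus rose together. In the annotation 1269 of the exon bases of Herc6 also belong to Gm45193 on the same strand.

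The PARP genes and their partner Dtx3l encode ADP-ribosyl transferases and a ubiquitin ligase, and all 4 rose. Parp9 and Dtx3l, which work as a pair and overlap by 458 exon bases on opposite strands, rose 2.49-fold and 2.62-fold. Parp12 rose 3.15-fold and Parp14 5.54-fold. The 3 large helicase and ring finger genes also rose. Rnf213, a giant ubiquitin ligase, was at 163, 186, 1066 and 122 CPM, 6.55-fold higher. Helz2, a nuclear helicase and coactivator, was at 144, 195, 806 and 98.7 CPM, 5.59-fold higher. In both genes TP5 lay between control and sFD17, nearer to control. Znfx1, a helicase that senses viral RNA, rose 2.73-fold.

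Of the 3 membrane proteins 1 rose. Ifitm3, which blocks viral fusion in endosomes, was at 368, 393, 968 and 313 CPM, 2.63-fold higher. Ifitm1, its surface counterpart, was at 523, 332, 721 and 222 CPM, and Bst2, which tethers budding virions, at 52.3, 50.8, 79.0 and 70.0 CPM. Their log2 fold changes in sFD17 were 0.46 (0.42 to 0.51) and 0.60 (0.47 to 0.73), below the threshold. Of the 6 Trim30, Phf11 and nuclear body genes, Trim30a (2.14-fold), Sp100 (2.42-fold) and Daxx (3.05-fold) rose, while Trim30d (0.83), Phf11b (0.80) and Phf11d (0.36, interval −0.03 to 0.77) stayed under a log2 fold change of 1. Among the 9 signalling and other induced genes 5 rose. Xaf1, a promoter of apoptosis, was the highest at 5.44-fold. Rtp4 rose 3.06-fold, Trafd1, a feedback regulator of innate signalling, 2.88-fold, Ifi27l2a 2.67-fold and Ifi35 2.33-fold. The other 4 were Nmi, the binding partner of Ifi35, at 0.81, Epsti1 at 0.57, Ifi44 at 0.23 and Lgals3bp at −0.06 on the log2 scale. Ifi44 had only 5 to 15 counts per library, and its interval of −0.90 to 1.41 says little.

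Per length of transcript, in RPKM (reads scaled by transcript length and by the TMM library size), the levels in control ran from 0.145 for Ifi44 to 543 for Ifitm3. The next were Ifitm1 at 478, Ifi27l2a at 305, Isg15 at 238 and Samhd1 at 109. In sFD17 the order was Ifitm3 at 1428, Isg15 at 951, Ifi27l2a at 816, Ifitm1 at 659 and Ifit3 at 228. Ifit3 thus came from 20.5 RPKM in control to just above Samhd1 (225) in sFD17. Across the 47 genes, read in the same pair of libraries, the level in control and the log2 fold change in sFD17 had Pearson's r of −0.08 and Spearman's rho of −0.15, and genes are not independent replicates.

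**Figure D2:**
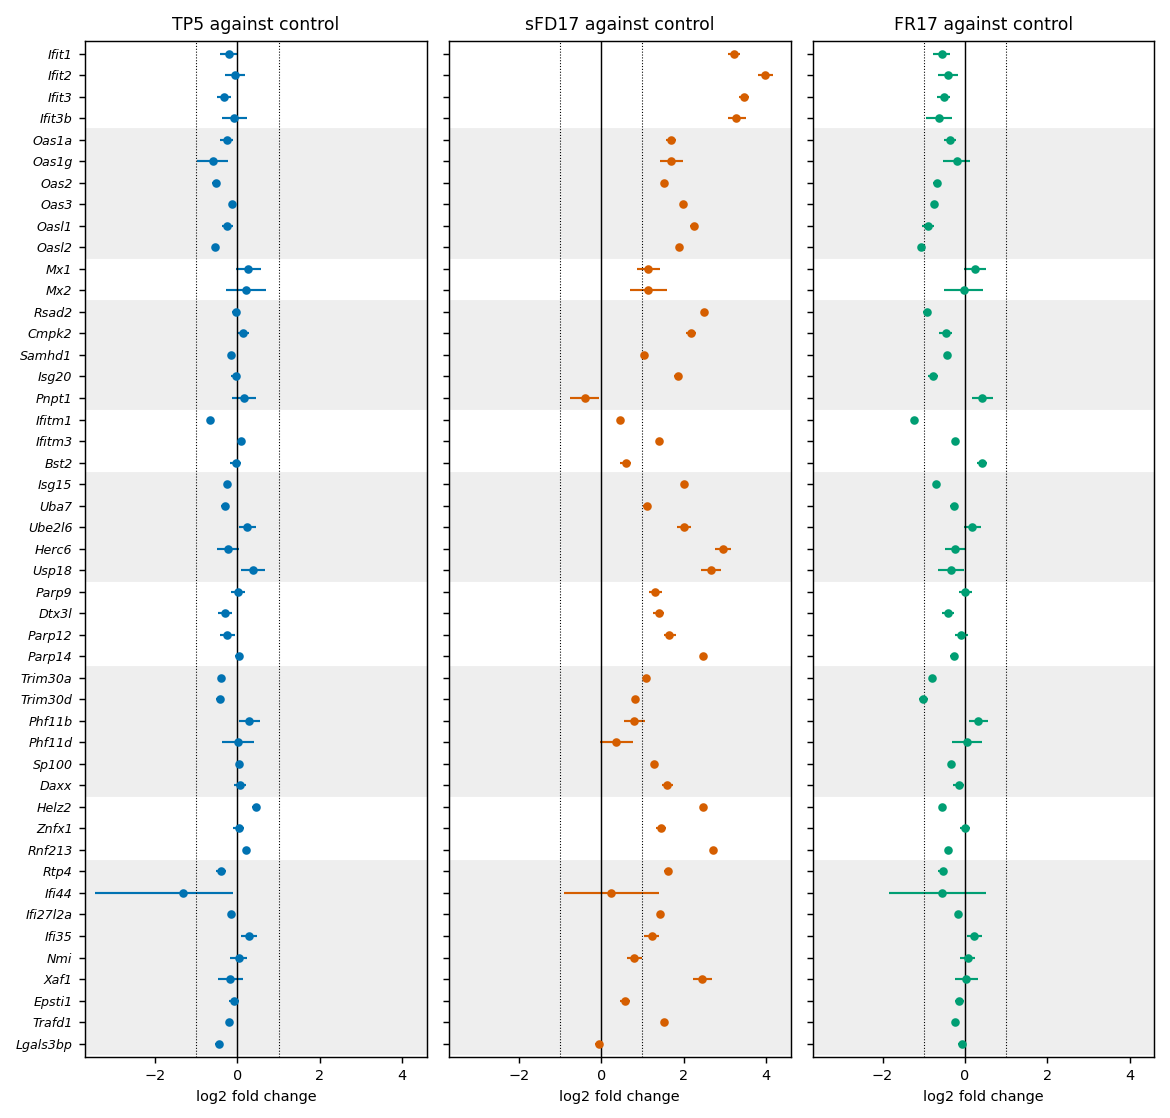
Log2 fold change of each of the 47 genes against the control library for TP5, sFD17 and FR17, with bars for the 95% counting interval, dotted lines at 2-fold and shaded bands for role groups. In sFD17 37 points lie right of the upper dotted line, led by Ifit2 at 3.98, while in TP5 and FR17 no point does.

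In TP5, the free peptide, 0 of the 47 were called higher and 1 lower, against 3.20% and 4.99% of all genes. The median log2 fold change was −0.08 and that of all genes 0.00, with a range of −1.33 to 0.44. The counting interval lay above 0 for 7 genes, below 0 for 21 and held 0 for 19. The 1 gene called lower was Ifi44, with 15 counts in control and 5 in TP5 (log2 −1.33, interval −3.45 to −0.11) and it was the only gene of the list with fewer than 10 counts in any library. The largest values above 0 were Helz2 at 0.44 and Usp18 at 0.37. Ifitm1 at −0.66, Oas1g at −0.60 and Oasl2 at −0.54 were the lowest apart from Ifi44. The exact test called 0 of the 47 in either direction, against 0.770% of all genes higher and 1.21% lower.

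In FR17, the assembling peptide that carries TP5, 0 genes were called higher and 3 lower, against 3.92% and 3.58% of all genes. The 3 were Ifitm1 with a log2 fold change of −1.23 (−1.28 to −1.18), Oasl2 with −1.08 (−1.15 to −1.01) and Trim30d with −1.01 (−1.12 to −0.91). Their counts were 8828, 4300 and 1765 in control and 5106, 2768 and 1188 in FR17. The exact test called the same 3 lower and 0 higher, against 1.04% and 0.837% of all genes. Scaled by library size alone, 0 of the 47 were called lower. The median of the list was −0.34 against 0.02 for all genes, 36 of 47 genes lay below 0, and the counting interval lay below 0 for 30 and above 0 for 4. With library size alone the median was −0.10 and 26 genes lay below 0, and relative to the median of all genes both scalings gave −0.36. Rsad2 at −0.93 and Oasl1 at −0.90 came nearest to the threshold after the 3. Bst2 and Pnpt1, both at 0.42, were the highest.

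The 3 peptides were given at the same dose and times, so they can also be set against each other. These comparisons reuse the libraries above and are not independent of them. In sFD17 against TP5, 37 of the 47 genes were at least 2-fold higher and 0 lower (6.74% and 5.64% of all genes), with a median of 1.72 and an interval above 0 for 45. DESeq2's Wald test called 8 of the 47 higher and 0 lower, and 100 of all genes higher and 39 lower. Of the 100 genes with the largest rise, 23 were on the list. In FR17 against TP5, 0 genes passed in either direction (7.04% of all genes higher and 2.88% lower), with a median of −0.16 and values from −0.99 (Helz2) to 0.77 (Ifi44). The sign of this median turned with the scaling, to 0.03 by library size alone and 0.14 by the neutrophil markers, while relative to the median of all genes it was −0.13 in both.

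FR17 and sFD17 share the assembling backbone and differ in whether the TP5 sequence is in its own order. In FR17 against sFD17, 38 of the 47 genes were at least 2-fold lower and 0 higher, where 10.8% of all genes were lower and 11.3% higher. DESeq2's Wald test called 13 of the 47 lower and 0 higher, and 709 of all genes lower and 429 higher. The median was −1.83 and that of all genes 0.07. Ifit2 was 20.8-fold lower (log2 −4.38, interval −4.58 to −4.21), with Ifit3 at −3.99, Ifit3b at −3.91, Ifit1 at −3.78 and Rsad2 at −3.43 next. The counting interval lay below 0 for 43 genes, held 0 for 3 and lay above 0 for Pnpt1 (0.82, 0.52 to 1.14). Of the 100 genes with the largest fall here, 19 were on the list. By its median, the difference between the 2 assembling peptides was thus larger than that of FR17 or of TP5 from control, and no replicate shows how far 1 library of each can vary.

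**Figure D3:**
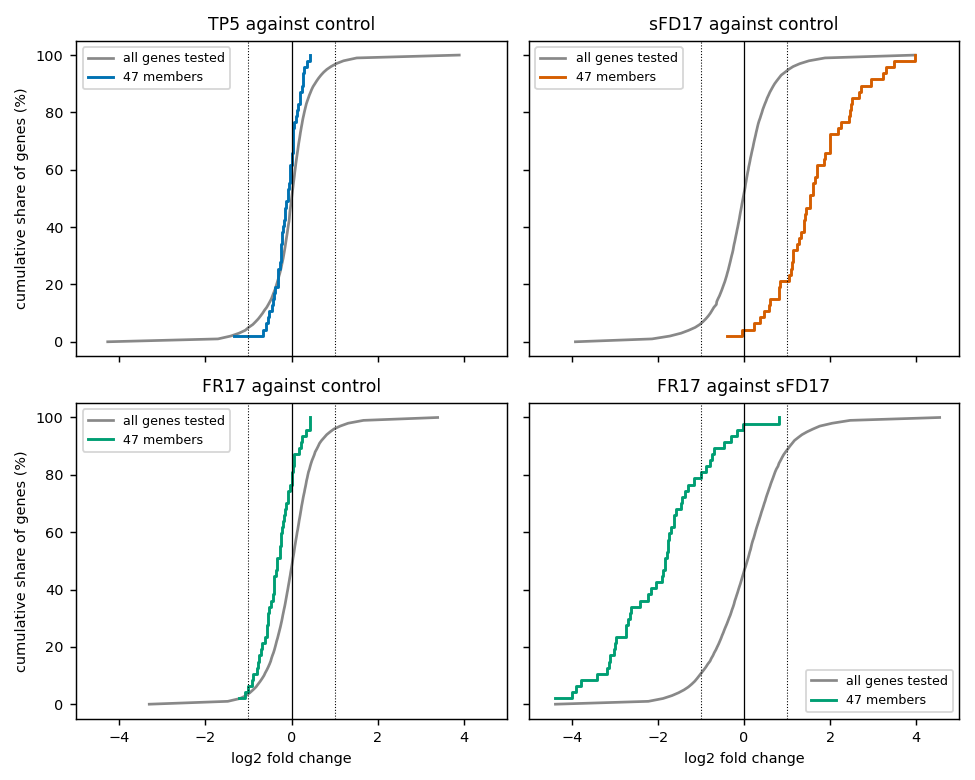
Cumulative share (%) of genes by log2 fold change for the 47 interferon-stimulated genes (coloured steps) and all 16369 genes tested (grey line), with dotted lines at 2-fold, in 4 comparisons. The list lies close to all genes for TP5 against control (medians −0.08 and 0.00), a little to the left for FR17 against control (−0.34 and 0.02), and far apart for sFD17 against control (1.53 and −0.03) and FR17 against sFD17 (−1.83 and 0.07).

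The upstream part of the pathway was read from a list of 57 genes, of which 38 passed the filter. Of 21 ligand genes only Ifnb1 and Ifng passed. The IFN-α genes had no counts apart from 1 count of Ifna5 in FR17, and a count of 0 allows up to 3 counts, or 0.131 to 0.227 CPM. Ifnb1, the gene of IFN-β, had 47, 18, 19 and 76 counts. Its log2 fold change was −1.35 (−2.31 to −0.63) in TP5, which was called lower, −0.90 (−1.80 to −0.15) in sFD17 and 0.24 (−0.29 to 0.81) in FR17. In these sorted cells Ifnb1 transcript was highest in FR17, and 45 of the 47 targets were highest in sFD17. Whether IFN-β from these cells bears on the targets was not tested. Ifng had 15, 17, 23 and 56 counts, and was called higher in FR17 (1.35, 0.62 to 2.39).

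Of the 38 genes, 8 rose and 0 fell in sFD17, 0 rose and 1 fell in TP5, and 1 rose and 0 fell in FR17. Beside these stand 5.31% of all genes higher in sFD17, 4.99% lower in TP5 and 3.92% higher in FR17, and the single calls in TP5 and FR17 are near or under that share. The type I receptor chains showed small changes: Ifnar1 was at 119, 101, 121 and 92.9 CPM, and Ifnar2 at 114, 95.4, 135 and 84.8 CPM. The largest receptor value in sFD17 against control was Ifnlr1 at 0.83 (0.61 to 1.05). Ifnlr1 was called lower in FR17 against sFD17, at −1.26. None of the 6 receptor genes was past 2-fold in any comparison with control. Of 5 kinases and STAT factors listed, Stat2, a subunit of the ISRE-binding complex, rose in sFD17. It was at 57.8, 48.8, 236 and 44.9 CPM, a log2 fold change of 2.03. Irf9, at 0.86 (0.77 to 0.95), stayed below 2-fold. Irf7, the factor that amplifies type I interferon production, was at 139, 168, 726 and 108 CPM, a log2 fold change of 2.38, and was the 1 of 7 interferon regulatory factors to rise.

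Nucleic acid sensors held the other 6 of the 8 genes called higher in sFD17, out of 12 tested. Zbp1, the Z-nucleic acid sensor, was at 36.6, 29.7, 283 and 35.1 CPM, a log2 fold change of 2.94. The cytosolic RNA sensors Ifih1 (1.81), Dhx58 (1.80) and Ddx58 (1.29), the kinase Eif2ak2 (1.80) and the editing enzyme Adar (1.34) also rose. Mavs, the adaptor of these RNA sensors, was at −0.84 (−1.15 to −0.56). The 6 negative regulators stayed under 2-fold, with Socs1 highest at 0.84. The genes that rose in this list are themselves known interferon targets, while the type I receptor chains, Jak1 (0.28) and Tyk2 (0.44) were near control.

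The guanylate-binding proteins and immunity-related GTPases, which respond more to interferon-γ and attack vacuoles of intracellular microbes, are set beside the 47 for contrast. Of 9 Gbp genes tested, 5 rose and 1 fell in sFD17, the largest values being Gbp2 at 3.59 and Gbp2b at −1.82. In TP5 3 of the 9 fell. Of 12 IRG genes, 8 rose and 2 fell in sFD17, from F830016B08Rik at −2.50 to Tgtp1 at 3.35, and 4 fell in TP5, Iigp1 being at −2.29. Several of these genes have few counts, F830016B08Rik 38 in control and 4 in sFD17. FR17 gave 0 of 9 and 1 of 12 lower. Over all genes the share called higher was 5.31% for sFD17, and the share called lower was 6.47% for sFD17, 4.99% for TP5 and 3.58% for FR17, and a difference between these families and the 47 genes was not tested.

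**Figure D4:**
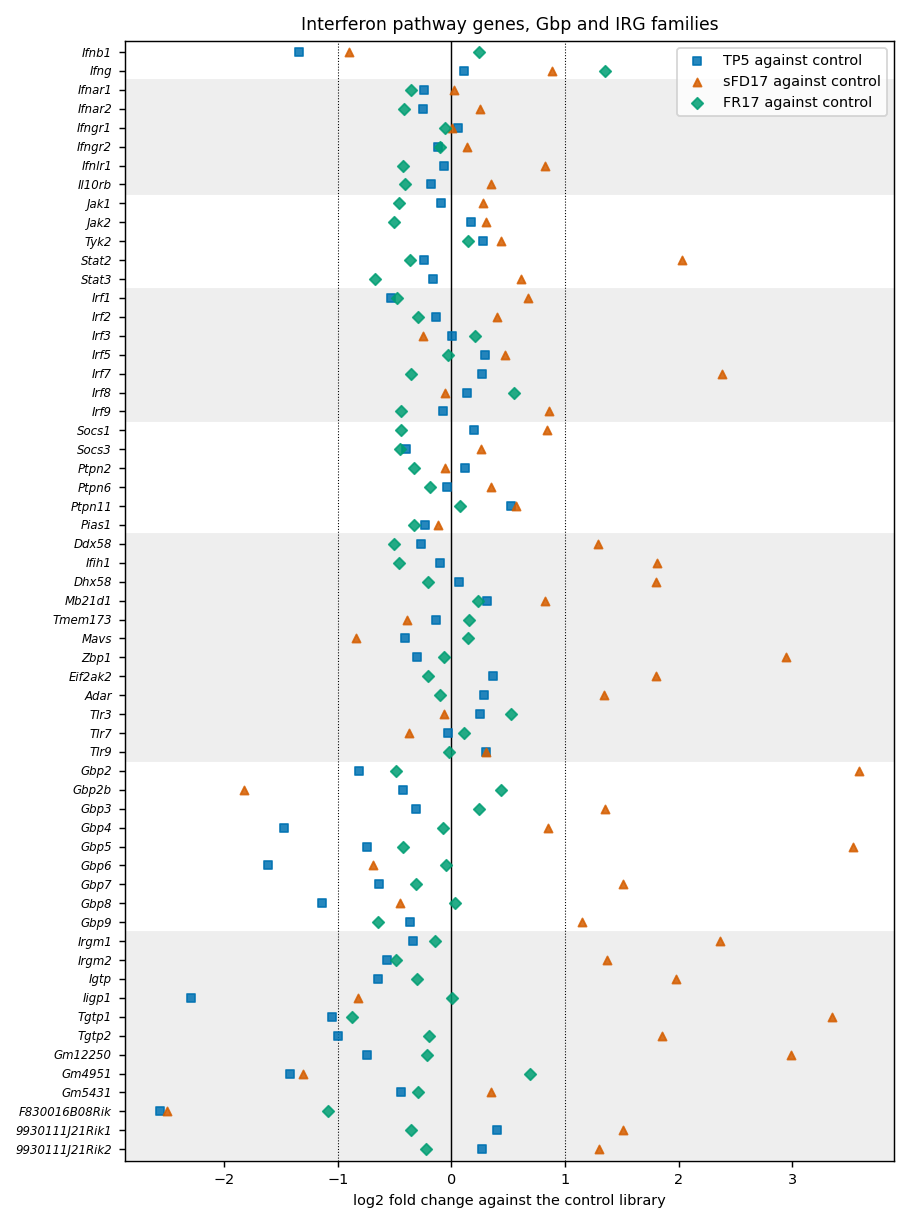
Log2 fold change against the control library for the 38 pathway genes tested, 9 Gbp genes and 12 IRG genes, in TP5, sFD17 and FR17, with dotted lines at 2-fold and shaded bands for the groups. Ifnar1 and Ifnar2 lie between −0.42 and 0.25, Stat2 (2.03), Irf7 (2.38) and Zbp1 (2.94) lie to the right in sFD17, and the Gbp and IRG genes spread to both sides.

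Markers of other cells moved between the libraries and are given beside these results. In a bulk library, fewer cells of a type and less RNA per cell cannot be told apart. Of 15 marker lists with 96 genes, the 13 neutrophil markers summed to 3.34%, 3.82%, 3.78% and 3.55% of counts, or 1.10, 1.31 and 0.896 times control after scaling, with all 13 above control in sFD17. In TP5 9 of the 13 were above control, and in FR17 5. Ltf was at 2078, 3659, 3107 and 2810 CPM and Csf3r at 4952, 3571, 5947 and 2409 CPM. A scaling on this sum thus blends markers that moved apart. The 11 macrophage markers summed to 0.668%, 0.449%, 0.212% and 0.924%, or 0.648, 0.367 and 1.17 times control, and 0 of 11 were above control in sFD17. The 7 monocyte markers stood at 1.28 times control in sFD17, with 4 of 7 above control, and at 0.912 times in FR17. Nr4a1 held most of that sum (2468 CPM in control and 3468 in sFD17), while F13a1 was at 297 and 79.1 CPM. Without Nr4a1 the other 6 monocyte markers stood at 1.10 times control in sFD17 and 1.06 times in FR17. In FR17 5 of the 7 were above control. Plasmacytoid dendritic cells are strong makers of type I interferon. Their 5 markers summed to 0.00335% to 0.00786% of counts, 0.737 times control in sFD17 and 1.26 times in FR17, with none at 0. Most of that sum was Tcf4 (698 of 903 counts in control), and 2 of the 5 markers were above control in sFD17. Without Tcf4 the other 4 stood at 0.649 times control in sFD17 (205 counts in control and 104 in sFD17) and 1.64 times in FR17.

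For the other lists the ratio in sFD17 was 1.08 for conventional dendritic cells, 0.760 for NK cells, 0.589 for T cells, 1.09 for B and plasma cells, 1.17 for eosinophils, basophils and mast cells, 1.02 for endothelium, 0.864 for fibroblasts, 2.04 for epithelium, 0.608 for red blood cells, 0.268 for platelets and 1.86 for melanoma (20 to 39 counts, all but 0 or 1 of them Pmel). Some of these sums rest on 1 gene, as seen by leaving out the largest marker (also chosen after seeing the data). Without Cd4 the other 6 T cell markers stood at 0.962 times control (310 counts in control and 233 in sFD17). The platelet sum was mostly Pf4 (103 CPM in control and 18.7 in sFD17), and the other 3 platelet markers were above control, at 1.27 times in sum. The epithelial sum was mostly the club cell gene Scgb1a1 (565 and 1222 CPM), and the other 4 markers stood at 0.981 times control in sum. In FR17 the NK cell list was at 3.20 times control and the eosinophil, basophil and mast cell list at 2.08, or at 3.16 and 3.17 without Gzma and Ccr3, their largest markers. Also in FR17, T cells were at 1.68 (2.04 without Cd4), red blood cells at 1.59 and platelets at 1.31 (1.90 without Pf4). In TP5 the 15 lists ran from 0.424 for platelets (1.14 without Pf4) to 1.88 for eosinophils, basophils and mast cells (1.46 without Ccr3). The part of these cell types in the results was not tested. Scaled on the neutrophil list instead of TMM, the median of the 47 in sFD17 was 1.14 with that of all genes at −0.41, and 43 of the 47 lay above 0.

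**Figure D5:**
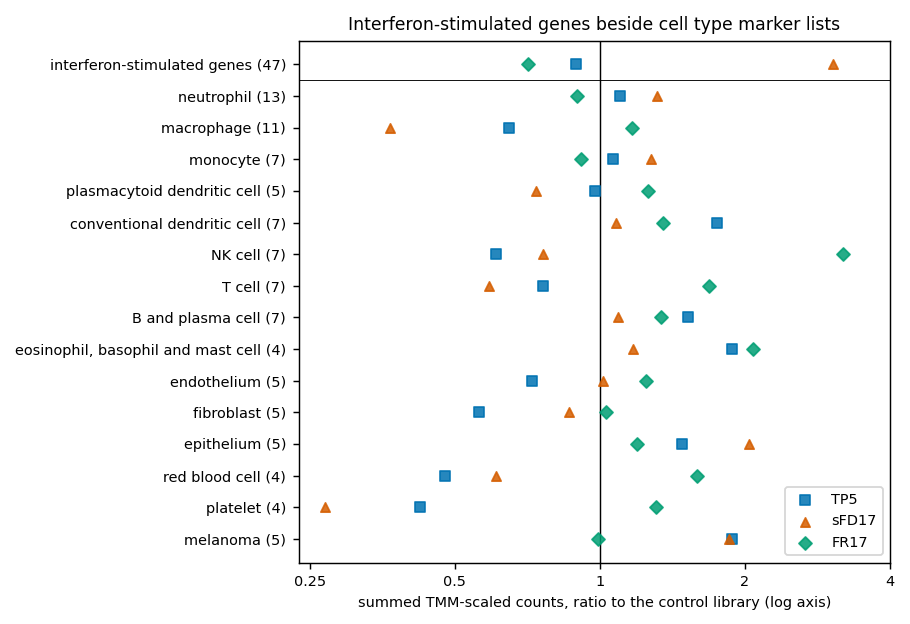
Summed TMM-scaled counts of the 47 interferon-stimulated genes and of 15 cell type marker lists (number of genes in brackets) as a ratio to the control library (log axis), for TP5, sFD17 and FR17. The 47 genes in sFD17 stand at 3.05, the macrophage list in sFD17 at 0.367 and the NK cell list in FR17 at 3.20.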

How the data were processed

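CD11b+Ly6g+ MDSCs were sequenced as 4 libraries, 1 per group. The deposited values are the authors' raw counts of reads on each gene, not normalized, beside gene coordinates and lengths. The submitters' processing notes name HISAT2 2.0.5, StringTie 1.3.3b, featureCounts 1.5.0-p3, edgeR 3.18.1 and GRCm38.p6, with no roles. The library kit keeps the strand, and the strand setting of the counting is not given in the sources used here, so genes that overlap on opposite strands (8 of the 47) and on the same strand (5 of the 47) may share reads. Columns were matched to samples by group name, with 0 left unmapped. Where a symbol stood on more than 1 row (100 symbols), only the row holding most counts entered.

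The computations here ran in R 4.3.3 (edgeR 4.0.16 and DESeq2 1.42.0) and in Python 3.11.15 with pandas 2.3.3, numpy 2.4.6 and matplotlib 3.10.9. A gene needed 10 counts or more in 1 library or more. Log2 fold changes are differences between log2 CPM values from edgeR (TMM scaling, prior count 2), and printed CPM and RPKM carry no prior count. The log2 fold change understates the change of genes with few counts. The 95% interval of the ratio of a pair of counts came from the exact binomial interval. The call was 2-fold, since 1 library per group gives no test, and the exact test (edgeR's trended dispersion with the libraries as 1 group, biological coefficient of variation 0.212 to 0.449) was an alternative. These tests compare libraries, not conditions. The steps were tested on simulated data. In each role group the genes with the largest change and the highest level, with at least 50 counts in a library, were to be named. The members, gene lists, naming rule and alternatives were chosen with earlier results of these data known. Exon overlaps and the 100-base words shared between genes were read from GENCODE M21, and promoter sequences from RefSeq. A gene of the pathway is not reported here.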

Additional observations from a re-analysis of the deposited data

How the results depend on the processing

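No paired analysis was possible because each group has 1 library. There was also no replicate to leave out. The counts of genes called and the medians were recomputed with DESeq2 size factors, upper quartile factors, library size alone, scaling on the neutrophil marker list, a prior count of 0.5, filters on low counts, other thresholds and tests of 2 libraries. Of these values 164 stayed within tolerance (a count within 1.5 times, a median within the 95% counting interval of the gene at the median), 32 moved beyond it and 2 turned sign. The 164 were 130 counts and 34 medians. Counts of 0 that stayed 0 are among the 130, at stricter thresholds by construction, so the 164 is no measure of stability. For TP5, sFD17 and FR17 against control, library size alone put the median of all genes at 0.05, −0.23 and 0.26, and the neutrophil list at −0.14, −0.41 and 0.18, so medians of the list are best read relative to these. The median of the list by library size alone and by the neutrophil list was 1.32 and 1.14 in sFD17 against control, 1.46 and 1.47 in sFD17 against TP5, and −1.37 and −1.28 in FR17 against sFD17. For FR17 against TP5 it turned from −0.16 to 0.032 by library size alone and 0.14 by the neutrophil list, and relative to all genes it was −0.13 in both.

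The 37 genes higher in sFD17 than in control became 32 by library size alone, 28 by the neutrophil list, 14 at 4-fold, 19 with the exact test at a fixed biological coefficient of variation of 0.4, and 1 with DESeq2's Wald test. The 37 higher than in TP5 became 19 at 4-fold and 8 with DESeq2. The 38 lower in FR17 than in sFD17 became 20 at 4-fold and 13 with DESeq2, and 1 gene was higher at 1.5-fold, by library size alone and by the neutrophil list. The 3 lower in FR17 than in control became 11 at 1.5-fold, 1 by the neutrophil list, and 0 at 4-fold, by library size alone, with the fixed coefficient and with DESeq2. The 1 gene lower in TP5, Ifi44, became 3 genes at 1.5-fold and 0 at 4-fold, with 10 counts required in every library, with the counting interval clear of 2-fold, with both exact tests and with DESeq2. In FR17 against TP5, 1 gene was higher and 9 were lower at 1.5-fold, and 1 was higher by the neutrophil list. The cause of these shifts was not tested, apart from the stricter or looser thresholds, which change the number by construction. Depth limits Ifi44, Mx2, Ifnb1 and Ifng, whose intervals are wide. Over all genes tested, the 0.11 quantile was −0.63 in TP5 and −0.61 in FR17 against control. In FR17 against TP5 the 0.1 quantile was −0.59. At least these parts of all genes were past 1.5-fold lower, beside the counts at 1.5-fold above. In sFD17 against control the 0.99 quantile was 1.88, short of 4-fold. Shares of all genes at the other settings are not given in this paragraph, so those counts describe the list alone.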
